A study of Homo sapiens with 9 samples.

Results

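CDK9 and DDX21 peaks were examined at 8 genes that set or mark the identity of melanocytes and of the neural crest: MITF, SOX10, PAX3, SOX9, TYR, DCT, AXL and NGFR. The genes were chosen by name. A peak belonged to a gene when it overlapped the gene's hg19 span, widened by 20 kb on each side, by at least 1 bp. The 8 widened spans, called loci here, ran from 45.4 to 268.9 kb and covered 888.8 kb together. They held 37 of the 27469 peaks of 6 peak lists.

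The lists came from sequenced chromatin immunoprecipitates of A375, a human cell line from a malignant melanoma. Cells of all groups were treated for 24 h, with DMSO, with 25 µM A771726, or with 25 µM A771726 and added nucleotides. The sources used here name neither these nucleotides nor their dose. A771726, the form in which leflunomide acts in the body, blocks dihydroorotate dehydrogenase and with it the making of pyrimidines. There was 1 library for each antibody and treatment, so no p-value was computed, and no difference between treatments could be compared with a replicate error. The lists hold no RNA, so the melanocytic character of the line could not be checked against expression of marker genes.

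CDK9 is the kinase of P-TEFb and acts on RNA polymerase II as it leaves the promoter and elongates. DDX21 is an RNA helicase, best known in the nucleolus, that has also been studied at genes transcribed by RNA polymerase II. In the neural crest and its melanocyte lineage, SOX10 and PAX3 activate MITF, and MITF drives pigment genes such as TYR and DCT. Melanoma cells that have left this program often express AXL, NGFR or SOX9 instead.

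The proteins were found at few of these genes. AXL was the one gene span that held peaks of both, in DMSO and with nucleotides, while with A771726 its span held a peak of neither. CDK9 peaks were mostly at SOX10, which held 13 in DMSO, 1 with A771726 and 8 when nucleotides were added. DDX21 had its strongest peak at the 5′ end of MITF, under all 3 treatments. TYR, DCT, SOX9 and NGFR held no peak of either protein in any list. In all, the loci held 16, 1 and 9 CDK9 peaks in the order DMSO, A771726, nucleotides, and 4, 3 and 4 DDX21 peaks. The CDK9 peaks were 0.462%, 0.345% and 0.29% of the 3462, 290 and 3099 peaks of their lists. The DDX21 peaks were 0.0481%, 0.0686% and 0.0505% of 8321, 4375 and 7922.

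**Figure D1:**
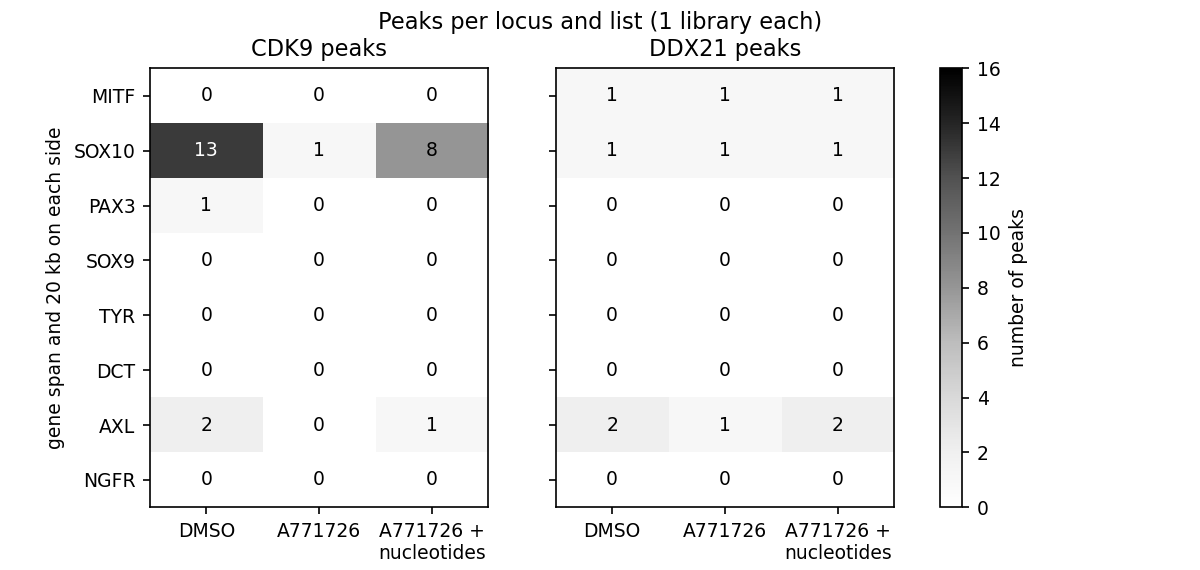
Number of peaks at each gene, rows, under each treatment, columns, for CDK9 on the left and DDX21 on the right, with 1 library per column. The dark row is SOX10, with 13, 1 and 8 CDK9 peaks, and 4 of the 8 genes hold 0 everywhere.

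CDK9 had a peak at 3 of the 8 loci in DMSO, at 1 with A771726 and at 2 when nucleotides were added. Of all 100 kb tiles of the genome, 6.51%, 0.427% and 5.76% held at least 1 CDK9 peak of the same list. DDX21 had a peak at 3 of the 8 loci under each treatment, although at SOX10 only beyond the gene, and with A771726 also at AXL only beyond the gene. Without the widening it had a peak at 2 genes in DMSO, at 1, MITF, with A771726 and at 2 with nucleotides. Tiles with a DDX21 peak made up 18.4% in the DMSO list, 10.8% in the A771726 list and 17.6% in the nucleotide list. The loci are few, of unequal length and chosen by name, so these shares are a description only.

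MITF encodes the transcription factor that is the central regulator of melanocytes. Its only peak was a DDX21 peak that covered the 5′ end of the span, which is the most upstream start of the gene. In DMSO it lay at chr3:69788302-69788683 (all peak positions are of hg19) and had a fold enrichment of 31.7 and a −log10 q of 267. Both values come from the authors' peak caller, and they describe a peak only within its own list. With A771726 the peak was at chr3:69788348-69788653, with a fold of 23.04 and a −log10 q of 151. With nucleotides it was at chr3:69788240-69788716, with a fold of 41.3 and a −log10 q of 303. The peak was shortest with A771726, at 306 bp. It was 382 bp long in DMSO and 477 bp with nucleotides. The summits of the DMSO, A771726 and nucleotide lists lay 102, 110 and 111 bp upstream of the 5′ end, within 9 bp of each other.

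The number of fragments over a summit, its pileup, was recovered from the deposited values. At MITF 236 fragments lay over the DMSO summit, 151 over that of A771726 and 240 over that of nucleotides. The A771726 summit was thus the lowest, and the others were alike. Of all 4253 DDX21 peaks of DMSO cells that overlapped an A771726 peak, 99.3% had a lower pileup with A771726, with a median ratio of 0.400, so a lower value at MITF is what nearly every site showed. The ratio at MITF was 0.640. Of the 797 DDX21 peaks in DMSO with a pileup within 10% of MITF's, 789 had an A771726 peak, and among these the median ratio was 0.570, with quartiles of 0.483 and 0.675, and MITF lay between these. The highest pileup of any peak was 256 fragments in DMSO, 262 with nucleotides and 232 with A771726, so MITF lay near that limit in the first pair and further from it in the last. Whether the limit bears on the ratio was not tested. Within its list the peak ranked 371 of 8321 by −log10 q in DMSO, 320 of 4375 with A771726 and 121 of 7922 with nucleotides.

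RefSeq (GRCh38.p14) gives 3 starts for MITF. The first is the most upstream, and the last is the melanocyte-specific start. The middle and the last start lie inside the span and had no peak of either protein in any list. The 250 bases before each start are shown because the first had the DDX21 peak and the others had none. All are on the plus strand, and capitals mark matches to the motifs searched.
First MITF start, GRCh38.p14 chr3:69739214-69739463: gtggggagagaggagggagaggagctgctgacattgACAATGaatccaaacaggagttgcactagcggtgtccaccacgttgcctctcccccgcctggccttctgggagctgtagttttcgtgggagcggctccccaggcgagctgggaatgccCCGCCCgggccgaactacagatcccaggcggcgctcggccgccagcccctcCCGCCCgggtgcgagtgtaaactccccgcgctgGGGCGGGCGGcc
Middle MITF start, GRCh38.p14 chr3:69763561-69763810: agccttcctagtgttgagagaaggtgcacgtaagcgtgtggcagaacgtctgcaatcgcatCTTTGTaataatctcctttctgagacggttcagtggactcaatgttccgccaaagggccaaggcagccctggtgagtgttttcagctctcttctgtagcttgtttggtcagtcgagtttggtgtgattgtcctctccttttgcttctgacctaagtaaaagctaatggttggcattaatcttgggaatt
Last MITF start, GRCh38.p14 chr3:69936342-69936591: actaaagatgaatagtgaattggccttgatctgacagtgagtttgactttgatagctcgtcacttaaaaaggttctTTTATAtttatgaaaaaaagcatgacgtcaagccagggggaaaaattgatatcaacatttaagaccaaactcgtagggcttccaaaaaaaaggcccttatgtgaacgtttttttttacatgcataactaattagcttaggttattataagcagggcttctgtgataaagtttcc

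The first start was GC-rich, at 68.0% G and C with 20 CpG, against medians of 58.0% and 11 over 34788 distinct RefSeq windows of this length. The middle start had 46.8% and 7 CpG, and the last 34.8% and 4 CpG, so both starts without a peak lay below these medians. GGGCGG, the GC box, matched 4 times before the first start, at −96, −45, −12 and −8 counted from the start, and the last pair overlapped. It matched before neither of the others, and 42.6% of all windows held it. ACAATG, one of the SOX-type words searched, matched once before the first start, at −214, and 9.29% of windows held it. ACAAAG, the other SOX-type word, matched once before the middle start, at −189, and 13.8% of windows held it. TATAAA matched once before the last start, at −174, and 10.8% of windows held it. None of the 3 windows held the E-box CACGTG, found in 6.31% of all windows, the M-box core CATGTG, found in 9.44%, or the AP-1 word TGANTCA, found in 6.59%. All words were searched on both strands. The sequences are of another build than the peaks, and the start of that build need not be the same base, so the summits were not placed on the letters.

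**Figure D2:**
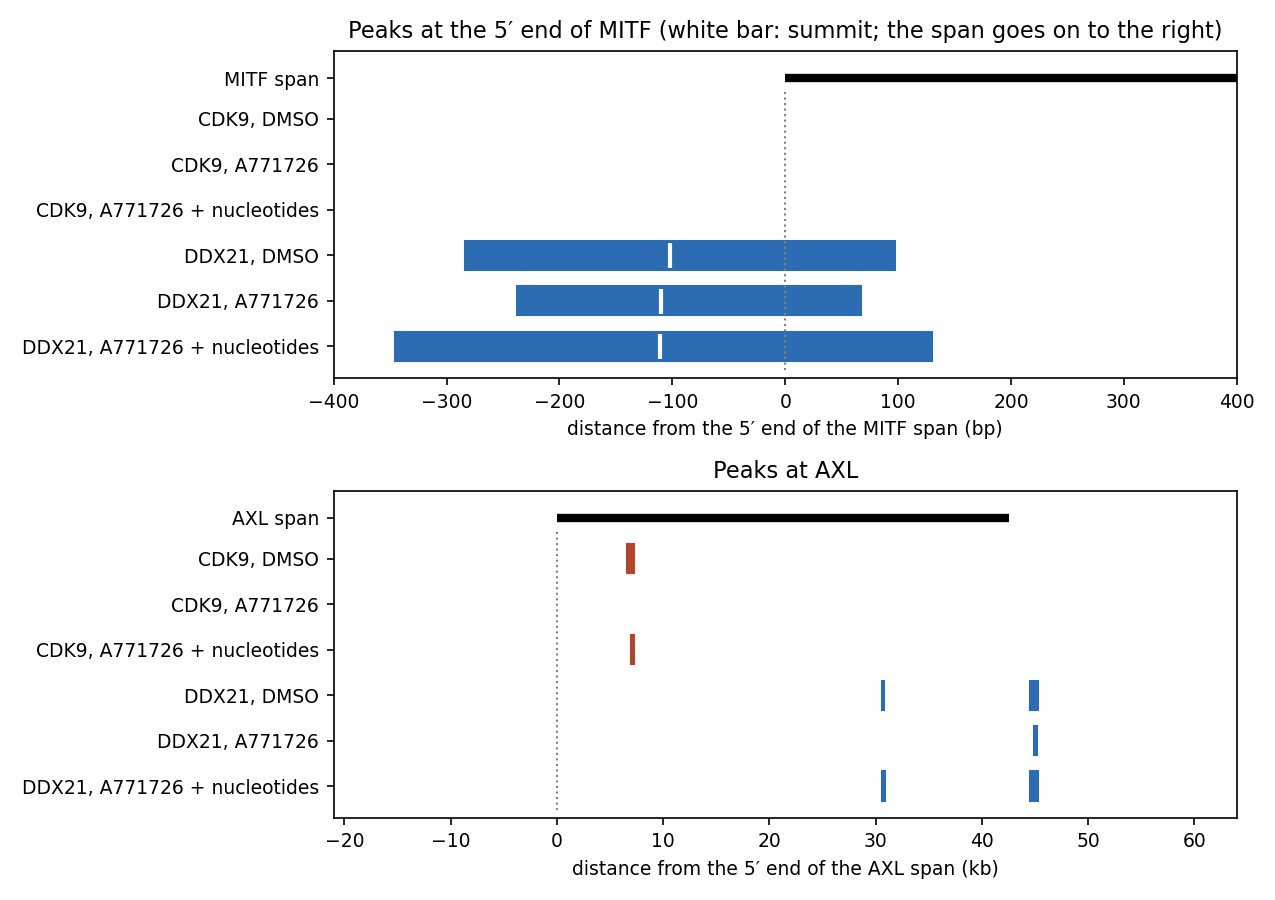
Peak positions in the 6 lists, drawn as distance from the 5′ end of MITF in bp (top) and of AXL in kb (bottom), with CDK9 in red, DDX21 in blue and the gene span in black. The DDX21 peaks cover the MITF start under all 3 treatments with summits 102 to 111 bp upstream, and at AXL the CDK9 peaks lie near 7 kb and the DDX21 peaks near 31 and 45 kb.

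SOX10, the transcription factor that maintains neural crest and melanocyte identity, was the one gene of the 8 with a dense group of CDK9 peaks. Of the 13 DMSO peaks, 8 had their summit inside the 12221 bp span, 4 upstream and 1 downstream. SOX10 is transcribed from the minus strand, so upstream is toward higher positions. In DMSO the peaks covered 4107 bp, or 7.86% of the locus. The A771726 peak covered 281 bp, or 0.538%, and the peaks with nucleotides 2876 bp, or 5.51%. A run of 10 of the DMSO peaks, with gaps of at most 10 kb, covered chr22:38365089-38380878. Of the 62 such CDK9 runs of at least 5 peaks in the DMSO list, 18 had more peaks. With nucleotides the run at SOX10 had 6 peaks, and 35 of 67 runs had more. In 100 kb tiles, at least 5 CDK9 peaks were found in 0.33% of tiles in DMSO, in 0.0388% with A771726 and in 0.327% with nucleotides. At least 13 peaks, the number at SOX10 in DMSO, were found in 0.0518% of tiles, or 16 of 30915. The locus of SOX10 is 52.2 kb long, and SOX10 was singled out here after its peaks had been counted.

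**Figure D3:**
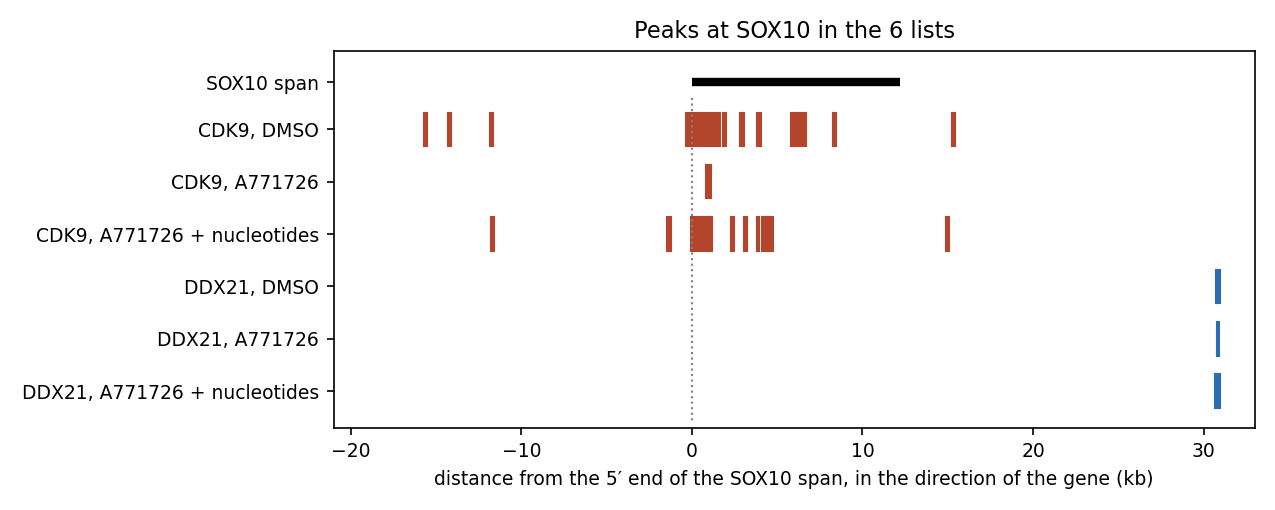
Positions of CDK9 peaks (red) and DDX21 peaks (blue) in the 6 lists at SOX10, by distance in kb from the 5′ end of the span (black) in the direction of the gene. CDK9 peaks crowd at the 5′ end and in the gene in DMSO (13) and with nucleotides (8), 1 remains in the A771726 list, and the DDX21 peak lies about 31 kb away, past the 3′ end.

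The strongest CDK9 peaks at SOX10 in DMSO were at its 5′ end. The first, at chr22:38380208-38380600, covered the 5′ end with a fold enrichment of 6.84, a −log10 q of 17.3 and a pileup of 39 fragments. Next to it, inside the gene, a peak of 1240 bp at chr22:38378893-38380132 had a fold of 6.20, a −log10 q of 12.5 and 31 fragments. A peak at chr22:38378529-38378694 followed with a fold of 5.82, a −log10 q of 9.76 and 26 fragments. These are the highest folds of the 13. The peak at chr22:38380655-38380878, just upstream of the start, had a fold of 2.90, a −log10 q of 1.76 and 18 fragments.

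Further into the gene the peaks were weaker. The peak at chr22:38377508-38377717 had a fold enrichment of 4.23, a −log10 q of 4.46 and 19 fragments. That at chr22:38376487-38376738 had a fold of 4.57, a −log10 q of 5.64 and 21 fragments. That at chr22:38374339-38374705 had a fold of 3.42, a −log10 q of 2.90 and 19 fragments. These summits lay below 23 fragments, the median of the whole DMSO list. Toward the 3′ end, a peak at chr22:38373868-38374204 had a fold of 4.67, a −log10 q of 5.56 and 20 fragments, and one at chr22:38372095-38372244 had a fold of 3.61, a −log10 q of 2.87 and 17 fragments. The downstream peak, at chr22:38365089-38365292 and 3.13 kb past the 3′ end, had a fold of 3.86, a −log10 q of 4.22 and 21 fragments. All 6 had lower folds than the 3 strongest peaks.

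Another 3 peaks lay 11.7 to 15.5 kb upstream of SOX10. They were at chr22:38392203-38392372, with a fold enrichment of 2.50, a −log10 q of 1.63 and 24 fragments, at chr22:38394640-38394841, with a fold of 2.90, a −log10 q of 2.32 and 22 fragments, and at chr22:38396043-38396234, with a fold of 2.997, a −log10 q of 3.65 and 29 fragments. Their folds were the lowest of the 13 together with that of the peak just upstream of the start. The local background, which the peak caller estimates around each peak, was 6.93 to 9.01 fragments at these 3. Over all 13 peaks it was 3.50 to 9.01 fragments, and 7 lay above the median of the whole list, 4.16. Whether this background bears on the number of peaks at SOX10 was not tested.

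With A771726, 1 CDK9 peak was found at SOX10, at chr22:38379426-38379706. It had a fold enrichment of 4.59, a −log10 q of 2.84 and 15 fragments, and its summit lay 1.07 kb into the gene. It fell within the DMSO peak at chr22:38378893-38380132. Its rank in its list was 243 of 290, while the best SOX10 peak ranked 156 of 3462 in DMSO and 345 of 3099 with nucleotides.

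With nucleotides, CDK9 peaks were again found at the 5′ end of SOX10 and inside the gene. Their summits inside the gene reached 4.6 kb from the 5′ end, against 8.3 kb in DMSO. The peak over the 5′ end was at chr22:38379357-38380594, with a fold enrichment of 4.76, a −log10 q of 11.7 and 40 fragments, and spanned 2 separate DMSO peaks. A peak upstream of the start, at chr22:38381773-38381970, had a fold of 5.58, a −log10 q of 12.05 and 34 fragments, and no DMSO peak overlapped it. Inside the gene, peaks lay at chr22:38378093-38378234, with a fold of 3.74, a −log10 q of 3.51 and 19 fragments, and at chr22:38377332-38377501, with a fold of 3.47, a −log10 q of 2.62 and 17 fragments. The pileups of both were below 24 fragments, the median of that list. The next were at chr22:38376595-38376738, with a fold of 4.26, a −log10 q of 5.01 and 21 fragments, and at chr22:38375797-38376433, with a fold of 4.58, a −log10 q of 5.91 and 22 fragments. The distal pair was at chr22:38392162-38392323, with a fold of 3.66, a −log10 q of 5.28 and 28 fragments, and at chr22:38365464-38365648, with a fold of 3.97, a −log10 q of 5.38 and 25 fragments. As in DMSO, the highest pileup was at the 5′ end, while the highest fold was that of the peak just upstream.

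Site by site, SOX10 peaks of DMSO and of cells with nucleotides often lay beside each other without touching. Of the 13 DMSO peaks, 4 overlapped a peak with nucleotides, against 45.2% of the whole DMSO list, and 8 overlapped one or lay within 500 bp of one. The share within 500 bp was not computed for the whole list, so this pattern is not known to be particular to SOX10. The peak at chr22:38377508-38377717, for example, was 6 bp from its neighbor in the list with nucleotides. Most of these peaks were weak in their lists, and 4 of the 13 ranked in the upper 50% of the DMSO list.

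The fewer CDK9 peaks at SOX10 with A771726 were in proportion to the whole list. That list held 290 peaks against 3462 in DMSO. When each CDK9 list was limited to its top 290 peaks, the loci held 1 peak in DMSO, 1 with A771726 and 0 with nucleotides, all at SOX10. With peaks of a −log10 q of at least 5 alone, CDK9 had 7 at the loci in DMSO and none with A771726. With nucleotides it had 7, so the lower number than in DMSO was found among the weaker peaks and not among these. The share of each whole list at this −log10 q was not computed, so these numbers are not known to be particular to the loci. The A771726 library also differed in its shortest peak, taken as the fragment length used in peak calling, which was 50 bp, against 128 bp in DMSO and 129 bp with nucleotides. The lowest background of each list was 0.521, 1.17 and 1.24 fragments, in the same order. As counted, the peak with A771726 had 15 fragments where the overlapping DMSO peak had 31. The overlapping peak with nucleotides had 40, but its summit lay 1127 bp from that DMSO summit. It was 143 bp from the summit of the DMSO peak over the 5′ end, which had 39 fragments. Relative to the lowest background found in its own list, the A771726 summit stood at 28.8, slightly above the 26.5 of the overlapping DMSO peak. At the 5′ end the summits stood at 33.3 in DMSO and 32.2 with nucleotides. Over the 187 CDK9 sites of the list with a peak in both libraries, the median ratio of A771726 to DMSO was 0.422 as counted and 0.948 after this scaling, and 95.2% and 55.1% of sites were lower. These sites are 5.4% of the 3462 DMSO peaks, and the others had no A771726 peak and so have no ratio. The part of this length in the peak number at SOX10 was not tested.

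**Figure D4:**
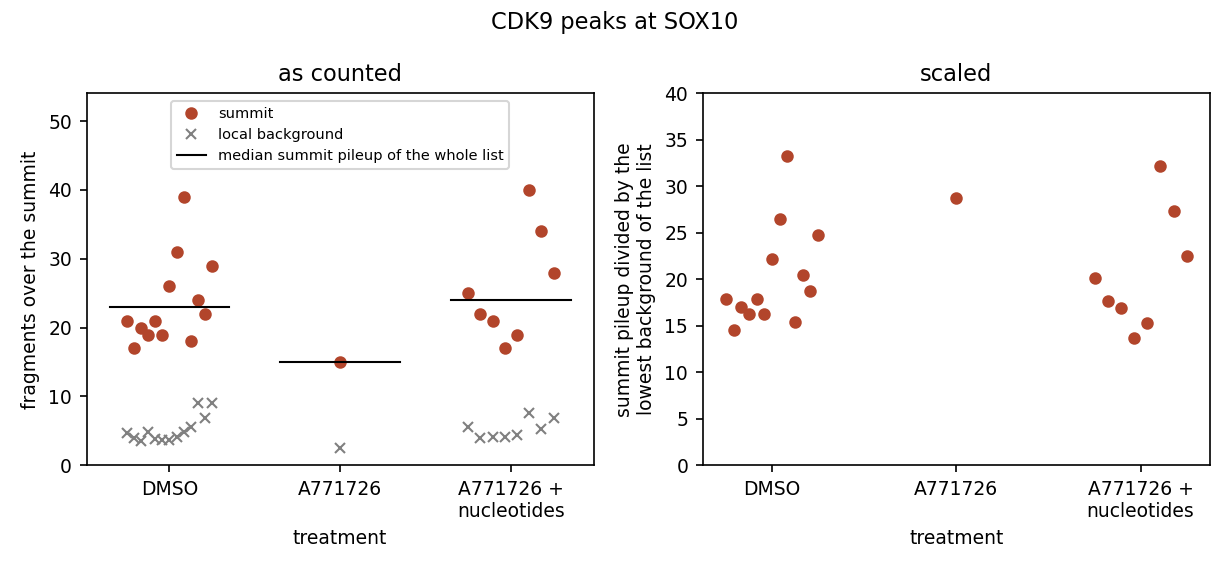
CDK9 peaks at SOX10 under each treatment, 1 point per peak, as fragments over the summit (left, with the local background as crosses and the median of the whole list as a line) and relative to the lowest background of the list (right). The A771726 peak is the lowest on the left, at 15 fragments, and sits at 28.8 on the right, within the 14.5 to 33.3 of the DMSO peaks.

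DDX21 had no peak inside SOX10. Its peak at the edge of the locus, 18.6 kb past the 3′ end and 1232 bp from the limit of the 20 kb, was at chr22:38349551-38349807 in DMSO, with a fold enrichment of 6.78, a −log10 q of 37.3 and 79 fragments. With A771726 it was at chr22:38349616-38349751, with a fold of 5.32, a −log10 q of 10.7 and 29 fragments, and in the nucleotide list at chr22:38349556-38349871, with a fold of 7.13, a −log10 q of 37.0 and 75 fragments. The pileup was lowest with A771726, with a ratio to DMSO of 0.367. Of the 528 DDX21 peaks in DMSO with a pileup within 10% of this one, 395 (74.8%) had an A771726 peak, and among these the median ratio was 0.342 and the quartiles 0.291 and 0.405. The other 133 had no A771726 peak, so they have no ratio and are in neither value. In the RefSeq gene table of GRCh38, C22orf23 and the start of POLR2F, a subunit gene of the nuclear RNA polymerases, lie on this side of SOX10, and POLR2F overlaps SOX10. This peak therefore cannot be given to SOX10, and a CDK9 peak inside SOX10 may belong to either gene.

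PAX3, a paired-box factor of the neural crest that acts upstream of MITF, held a single CDK9 peak. It lay in DMSO at chr2:223155680-223155826, with a fold enrichment of 6.53, a −log10 q of 8.80 and 20 fragments, and its summit was 7.96 kb into the gene. By −log10 q it ranked 772 of 3462. No CDK9 peak was found at PAX3 with A771726 or with nucleotides, and the nearest in the latter list was 399.6 kb away. Unlike SOX10, PAX3 thus had no peak with nucleotides, a contrast that rests on 1 peak. Of all CDK9 peaks in DMSO, 45.2% overlapped a peak with nucleotides, so a DMSO peak without one was common. DDX21 had no peak at PAX3 in any list.

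SOX9, the SOX factor of cartilage and of neural crest cells that is often present where SOX10 is low, held no peak. Nor did TYR, the enzyme that starts melanin synthesis, or DCT, the dopachrome tautomerase of the same pathway. NGFR, the low-affinity neurotrophin receptor and a neural crest marker, held none either. No peak lay within a further 30 kb of these 4 loci or of PAX3. A missing peak shows only that the peak caller's threshold was not reached there in these libraries.

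AXL, a receptor tyrosine kinase of melanoma cells with low MITF, held peaks of both proteins. The CDK9 peaks lay near its 5′ part. In DMSO, 1 was at chr19:41731670-41731828, with a fold enrichment of 4.16, a −log10 q of 7.67 and 32 fragments, and the other at chr19:41731881-41732369, with a fold of 3.79, a −log10 q of 4.76 and 24 fragments. Their summits were 6.61 and 7.08 kb into the gene. With nucleotides, 1 peak at chr19:41732055-41732370, with a fold of 4.57, a −log10 q of 9.07 and 33 fragments, overlapped the second of these. With A771726 there was none. No peak of either protein covered the 5′ end of AXL.

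Inside AXL, 30.7 kb from its 5′ end, DDX21 had a weak peak in 2 lists. It was at chr19:41755732-41755949 in DMSO, with a fold enrichment of 7.36, a −log10 q of 13.4 and 24 fragments. With nucleotides it was at chr19:41755740-41755955, with a fold of 7.91, a −log10 q of 15.4 and 26 fragments. No A771726 peak was found there, and of the 651 DDX21 peaks in DMSO with a pileup within 10% of this one, 2.3% overlapped an A771726 peak. A DMSO peak as low as this one thus rarely overlapped an A771726 peak anywhere.

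The stronger DDX21 peak of the AXL locus lay outside the gene, 2.55 kb past its 3′ end. It was at chr19:41769663-41770399 in DMSO, with a fold enrichment of 11.8, a −log10 q of 61.5 and 86 fragments. With A771726 it was at chr19:41770062-41770327, with a fold of 4.66, a −log10 q of 8.02 and 26 fragments, and in the nucleotide list at chr19:41769693-41770389, with a fold of 14.6, a −log10 q of 68.6 and 84 fragments. The ratio of A771726 to DMSO pileup was 0.302. Of the 552 DMSO peaks of like pileup, the 459 (83.2%) that were still called with A771726 had quartiles of 0.289 and 0.402, and the site lay between these. The 93 that were not called have no ratio. In the RefSeq table of GRCh38 the next gene past AXL is HNRNPUL1, which encodes an RNA-binding protein of the hnRNP group, so this peak cannot be given to AXL.

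**Figure D5:**
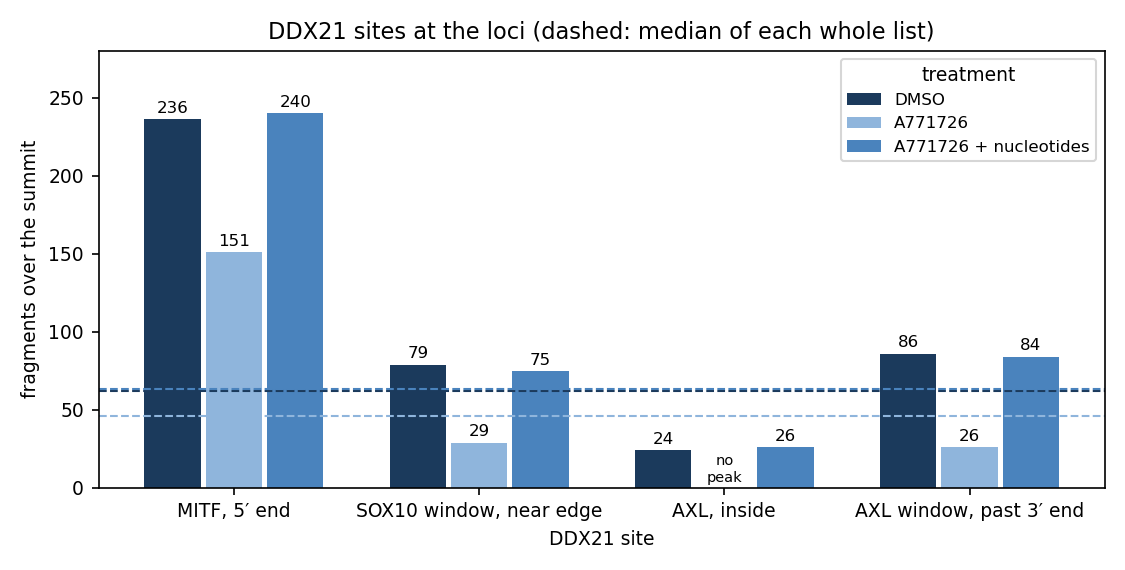
Fragments over the summit of the 4 DDX21 sites of the loci under each treatment, as bars, with the median summit pileup of each whole list as dashed lines. MITF stands above the others with 236, 151 and 240 fragments, A771726 is lowest at every site with a peak, and the site inside AXL has no A771726 peak.

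The share of DMSO peaks found in the other lists did not stand apart from that of the whole lists. Of the 16 CDK9 peaks at the loci in DMSO, 1 overlapped an A771726 peak, a share of 6.25% (95% Clopper-Pearson interval 0.158 to 30.2), against 5.4% of the whole list. With nucleotides 5 of 16 did, or 31.2% (11.0 to 58.7), against 45.2%. Of the 4 DDX21 peaks, 3 overlapped an A771726 peak, or 75% (19.4 to 99.4), against 51.1%, and 4 of 4 overlapped a peak with nucleotides (39.8 to 100), against 86.3%. Each whole-list share lies inside the interval of the loci, so no difference from the whole list was detectable with so few peaks. The intervals cover counting error only and treat peaks as independent, while those at SOX10 are neighbors.

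At the DDX21 sites, nucleotides went with pileups near those of DMSO. The ratios of nucleotides to DMSO were 1.02 at MITF, 0.949 at the SOX10 edge, 1.08 inside AXL and 0.977 past AXL. At MITF both pileups lay near the highest of any peak in their lists, 256 fragments in DMSO and 262 with nucleotides. The ratio there thus had little room to rise, and over the 797 DMSO peaks of like pileup it ran from 0.816 to 1.13. Over the whole list 63.9% of 7180 shared sites were lower with nucleotides than in DMSO, with a median of 0.945. Scaling by the lowest background of each list, which was 1.22, 1.16 and 1.10 fragments for DMSO, A771726 and nucleotides, gave 1.12, 1.05, 1.20 and 1.08 at the 4 sites. Over the whole list 39.2% of sites were then lower, with a median of 1.04, so the direction against DMSO turned with the scaling for the list as for the SOX10 edge and the site past AXL. After the same scaling the A771726 ratios at MITF, the SOX10 edge and past AXL were 0.668, 0.383 and 0.316, against a median of 0.418 over the list, and stayed below 1.

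CDK9 and DDX21 peaks did not meet at any locus. None of the 16 CDK9 peaks in DMSO overlapped a DDX21 peak, against 17.8% of the whole CDK9 list. The upper limit for 0 of 16 is 20.6% by the two-sided 95% Clopper-Pearson interval used for the other shares. It is 17.1% by the one-sided exact limit, which 3 counts of 16, or 18.8%, only approximates. The share of the list lies under the two-sided limit and over the one-sided exact limit. All of these limits treat peaks as independent, while 13 of the 16 are neighbors at SOX10. They are therefore too narrow, and fewer shared sites in DMSO cannot be concluded from them. With A771726 it was 0 of 1 peak, against 15.5%, and with nucleotides 0 of 9 peaks, with a two-sided upper limit of 33.6% and a one-sided one of 28.3%, against 13.6%, so no difference was detectable in these lists. The closest approach was 15.3 kb, between the peak downstream of SOX10 and the DDX21 peak at the edge of its locus in DMSO.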

How the data were processed

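Peak lists of 6 immunoprecipitated libraries were read, 1 for each antibody and treatment by the sample titles, and the 3 inputs were not used here. The submitters' processing notes name Bowtie, MACS2 2.0 and hg19. Parameters, and the control used for calling, are not stated there. Per the labels' protocols, libraries had 18 PCR cycles. The deposited lists give each peak's fold enrichment, a ratio to local background, with its −log10 p-value, −log10 q-value and a score that was not used. Positions were written from 1.

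The genes, and the motifs, tests and named items, were chosen with earlier results of these data known. All 8 genes are named, and all their peaks are described. The gene spans are those of the rule that defines the gene list, and that of DCT is rounded. Overlap was counted from 1 bp. Pileups are the whole numbers that give both the fold enrichment, as (pileup + 1)/(background + 1), and the −log10 p as a Poisson tail, met within 0.001 for 100% of peaks in every list. On simulated data, 100% of 999 pileups for CDK9 in DMSO and of 995 for DDX21 in DMSO were recovered, and no overlap or window call was wrong. Comparisons with list peaks of like DMSO pileup (within 10%) were added after the data were seen, describe the list only, and give ratios over sites called in both libraries. Shares carry exact two-sided 95% intervals (SciPy 1.17.1). Tiles of 100 kb ran to the last peak of each chromosome. Read totals are not known, so depth is unknown, and the lowest background served for scaling. The closing section gives the alternatives. The RefSeq table held promoters for MITF, PAX3, TYR, DCT and AXL and none for SOX10, SOX9 and NGFR.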

Additional observations from a re-analysis of the deposited data

How the results depend on the processing

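Of 220 alternatives, 191 stayed within 1.5 times the count or within the interval of the share, 29 moved and 0 reversed, which a count or a share cannot do. Of the 220, 128 left out a single locus, and 118 of these stayed. SOX9, TYR, DCT and NGFR held no peak, so leaving them out could not change any value. The same holds for CDK9 without MITF and for DDX21 without PAX3. The 191 is therefore no measure of stability. Of the other 92 alternatives, 73 stayed and 19 moved. Without widening, DDX21 had 2 peaks in DMSO, 1 with A771726, at 1 locus, and 2 with nucleotides, and widened by 50 kb it had 5 with A771726. At a −log10 q of at least 5, CDK9 had 7 peaks in DMSO, 7 with nucleotides and 0 with A771726, at 0 loci. DMSO and nucleotides then no longer differed, and 0% of the CDK9 DMSO peaks were found with A771726. The share of each whole list that passes this limit was not computed. With peaks within 1 kb merged, CDK9 had 9 peaks in DMSO. With all lists of an antibody cut to equal length by rank, CDK9 had 1 peak in DMSO, at 1 locus, and 0 with nucleotides, at 0 loci. Its shares found with A771726 and with nucleotides were then both 0%, and 100% of DDX21 DMSO peaks were found with A771726. With summits within 250 bp, 0% of CDK9 DMSO peaks were found with A771726. With a gap of at most 500 bp, added after the data were seen, 62.5% were found with nucleotides.

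Leaving out each locus in turn, CDK9 peaks in the DMSO, A771726 and nucleotide lists ranged from 3 to 16, 0 to 1 and 1 to 9, at 2 to 3, 0 to 1 and 1 to 2 loci. The lowest peak numbers, 3, 0 and 1, are those without SOX10. DDX21 peaks ranged from 2 to 4, 2 to 3 and 2 to 4, at 2 to 3 loci each, with 2 in DMSO and 2 with nucleotides when AXL was left out. CDK9 shares ranged from 0% to 7.14% with A771726 and from 28.6% to 33.3% with nucleotides. DDX21 shares ranged from 66.7% to 100% with A771726 and stayed at 100% with nucleotides. The cause was not tested. No paired analysis was possible because each group had 1 library. Read depth is unknown, and the counts at SOX10 include peaks close to the lowest −log10 q of the lists.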

Other observations

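CDK9 peaks went on beyond the SOX10 locus on its upstream side. Within a further 30 kb the DMSO list had 7 more CDK9 peaks, the A771726 list 0 and the nucleotide list 4. The nearest was at chr22:38412410-38412891 in DMSO, 11.9 kb outside the locus, with a fold enrichment of 5.80 and 29 fragments, and at chr22:38412579-38412881 with nucleotides, with a fold of 6.23 and 37 fragments. Past MITF, a DDX21 peak lay 11.1 kb outside the locus, at chr3:70048630-70048794 in DMSO, with a fold enrichment of 4.86 and 24 fragments, and at chr3:70048629-70048759 with nucleotides, with a fold of 4.18 and 24 fragments. The A771726 list had none there. In the RefSeq table of GRCh38 the next gene past MITF is SAMMSON, a long noncoding RNA gene known from melanoma. Past AXL, the nearest DDX21 peak outside the locus was at chr19:41815992-41816432 in DMSO, with a fold enrichment of 5.60. That stretch held 2 DDX21 peaks with A771726 and 1 with nucleotides.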
